A study of Mus musculus with 10 samples.

Results

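EphA receptors are the receptor tyrosine kinases that bind ephrin-A ligands, and their transcripts were followed here through 10 RNA-seq libraries of mouse retinal ganglion cells. The members were taken by symbol from the deposited table, Epha1 to Epha8 and Epha10, and all 9 were found among 23258 symbols. Of the 9, 6 (Epha4, Epha5, Epha6, Epha7, Epha8 and Epha10) reached at least 1 TPM in at least 5 libraries and were tested together with the other genes that did, 11744 in all. TPM is a transcript's abundance scaled for its length and for the library's total, so levels of different genes can be compared. Epha1, Epha2 and Epha3 did not reach that level and are given by their values.

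The comparison is between cells with and without a functional Satb1 gene, which encodes a chromatin organizer and transcription factor. Per the labels, 5 libraries came from Satb1-/- Hb9 mice and 5 from WT Hb9 mice, all of strain C57BL/6 at postnatal day 6, with the samples of a genotype taken from different litters. All 10 samples carried the Hb9-GFP reporter, a transgene that labels ganglion cells responding to motion in a preferred direction, and were GFP-positive cells sorted from dissociated retinae. The cDNA was amplified before library construction, and which part of Satb1 is missing is not stated in the labels.

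Ephrin-A ligands are tethered to the membrane of neighbouring cells, so an EphA receptor is engaged by contact, and its kinase then starts signals that usually make a growing axon turn away. Ligands can also signal back into the cell that bears them. In the mouse visual system, ganglion cells use EphA receptors to read ephrin-A gradients in the superior colliculus and thalamus. EphA5 and EphA6 are known to be graded across the mouse retina, high in temporal ganglion cells, while EphA4 is spread more evenly. EphA10 is the family's pseudokinase, a receptor with a kinase domain that lacks residues needed for catalysis.

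The feature that sets EphA10 apart can be read in the coding sequence. The lines that follow give, 5′ to 3′ on the coding strand, the stretch of 69 bases that runs from the catalytic loop to the metal-binding loop of the kinase domain, for the 6 tested receptors. The transcripts are those of GENCODE M21 on mm10, and the capitals mark the codon at each of the places that encode the catalytic and the metal-binding aspartate of an active kinase.
Epha10: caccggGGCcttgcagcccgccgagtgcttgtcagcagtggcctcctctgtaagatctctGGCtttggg
Epha5: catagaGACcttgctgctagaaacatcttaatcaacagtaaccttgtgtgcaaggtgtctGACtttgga
Epha6: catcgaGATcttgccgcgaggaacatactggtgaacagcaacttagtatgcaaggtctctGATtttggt
Epha4: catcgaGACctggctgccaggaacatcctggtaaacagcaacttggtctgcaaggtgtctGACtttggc
Epha7: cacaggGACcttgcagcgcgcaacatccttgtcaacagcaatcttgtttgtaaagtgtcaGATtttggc
Epha8: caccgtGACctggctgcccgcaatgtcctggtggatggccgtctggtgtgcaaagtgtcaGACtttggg
An aspartate codon, GAC or GAT, stood at both places in 8 of the 9 members, Epha1, Epha2 and Epha3 included, whereas Epha10 had the glycine codon GGC at both. The Epha10 stretch lies in exon 11 of the gene, at chr4:124914018-124914086 on the plus strand. Those of Epha5 (exon 14, chr5:84084754-84084822, minus strand) and Epha4 (exon 13, chr1:77382917-77382985, minus strand) are likewise each within a single coding exon.

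A few features of the libraries bear on the results. The share of TPM in cytosolic ribosomal protein genes was 11.6% to 13.0% in 3 libraries, Satb1-/- Hb9 4 and 5 and WT Hb9 5, and 3.79% to 7.98% in the other 7. The same 3 had scores of 88 or more on the first principal component of all tested genes, which held 32.9% of the variance, against -14.2 or less elsewhere. Satb1 itself was at 170, 126, 83.1, 34.9 and 24.1 TPM in Satb1-/- Hb9 1 to 5, against 304, 189, 414, 132 and 38.6 TPM in WT Hb9 1 to 5, so the groups overlapped and the gene's level checks the genotype only weakly. All 15 ganglion cell markers on the list had a median of at least 1 TPM in both genotypes and Nefl, a neurofilament gene and the most abundant of them, was at 6567 to 94381 TPM in Satb1-/- Hb9 and at 6422 to 19151 TPM in WT Hb9. The 6 direction-selective ganglion cell markers summed to 116 to 308 TPM in Satb1-/- Hb9 and to 534 to 1107 TPM in WT Hb9. The separation of these sums rested on Cartpt, a neuropeptide precursor gene and the most abundant of the 6, at 1.63 to 47.3 TPM in Satb1-/- Hb9 and 56.8 to 843 TPM in WT Hb9 (limma adjusted p = 0.134). Groups free of overlap were found for 0.502% of all tested genes. Without Cartpt the sums overlapped, at 68.8 to 306 TPM (median 157) in Satb1-/- Hb9 and 173 to 478 TPM (median 408) in WT Hb9. All 6 markers had a negative difference, 3 of them at an unadjusted limma p under 0.05, and none was called. Among all tested genes 67.4% were negative and 2.57% were lower in Satb1-/- Hb9 at that p. In sorted bulk samples like these, fewer cells of a type and less RNA per cell cannot be told apart. TPM keeps no count of reads, so the depth behind each value is unknown.

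Epha10 was the most abundant EphA receptor transcript by median in both genotypes, and the one with the largest difference between them. Its level was 47.5, 5.54, 10.3, 166 and 99.1 TPM in Satb1-/- Hb9 1 to 5, against 156, 37.0, 280, 259 and 176 TPM in WT Hb9 1 to 5. All 5 Satb1-/- Hb9 libraries were below the WT Hb9 median of 176 TPM, but the groups overlapped. WT Hb9 2 was lower than 3 of the Satb1-/- Hb9 libraries, and WT Hb9 1 was lower than Satb1-/- Hb9 4. The means were 65.7 ± 67.4 TPM in Satb1-/- Hb9 and 182 ± 96.7 TPM in WT Hb9 (SD, n = 5 each). On the log2(TPM + 1) scale the difference was -2.07 (SE 0.84, 95% interval -3.82 to -0.32). An exact permutation test, two-sided, gave p = 0.0873, and 0.00794 is the smallest that 5 against 5 libraries allow. The limma p was 0.023 before and 0.992 after Benjamini-Hochberg adjustment over all 11744 genes, so Epha10 did not pass the threshold of 0.05. The gene lies at chr4:124880899-124917800, plus strand, mm10 (ENSMUSG00000028876), and the averages of 90.0% of the tested genes were at or below its own.

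**Figure D1:**
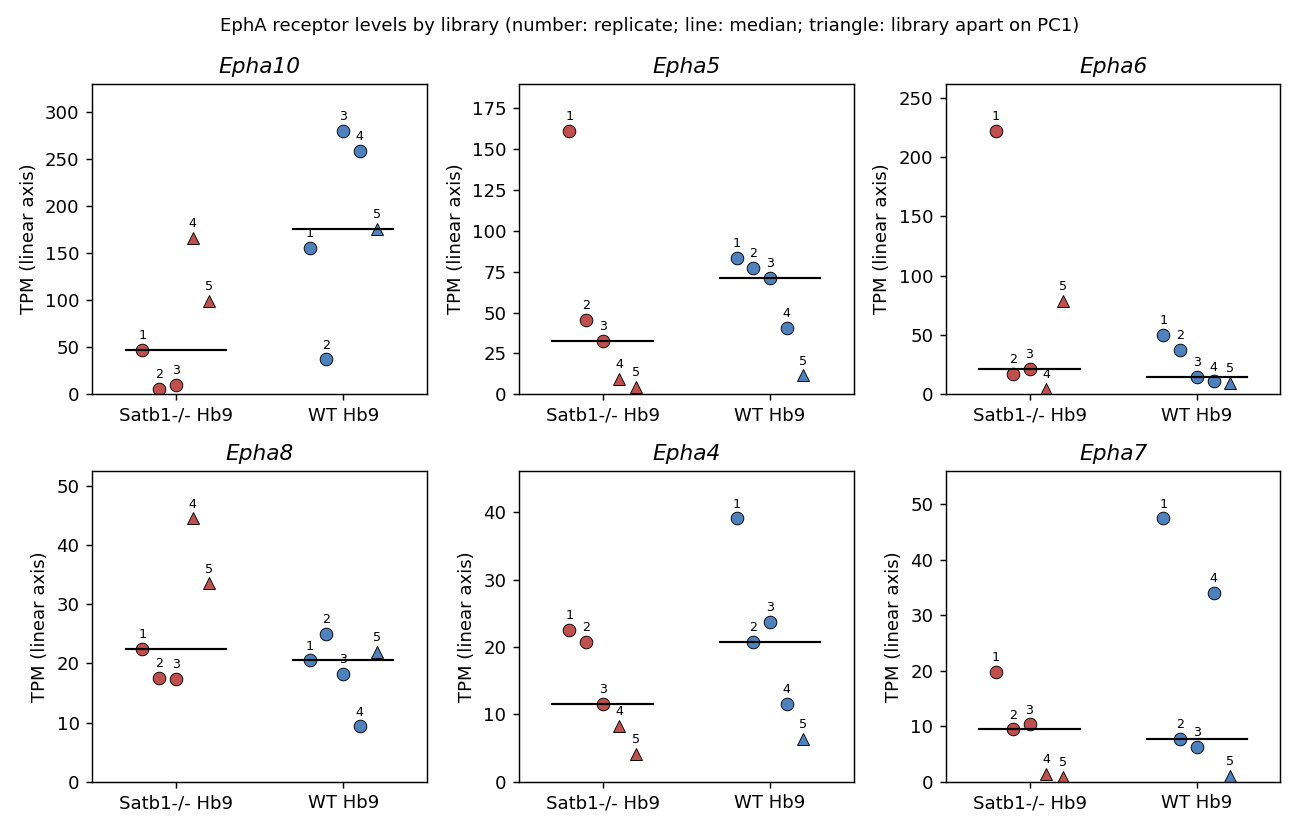
Level in TPM (linear axes) of the 6 tested EphA receptors in each library, with Satb1-/- Hb9 left and WT Hb9 right in every panel; numbers are replicates, lines are medians, and triangles mark the 3 libraries with high ribosomal protein shares. Epha10 had medians of 47.5 and 176 TPM, and in all panels the genotypes overlap.

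The Epha10 difference depended on which libraries were compared. In the 3 libraries with high ribosomal protein shares, Epha10 was at 166 and 99.1 TPM in Satb1-/- Hb9 4 and 5 and at 176 TPM in WT Hb9 5. In the other 7, it averaged 21.1 ± 23.0 TPM in Satb1-/- Hb9 (SD, n = 3) and 183 ± 112 TPM in WT Hb9 (SD, n = 4). Without those 3 libraries the log2 difference was -3.24. The two-sided exact permutation p over 35 divisions was 0.0857 (limma p = 0.0019 unadjusted, adjusted p = 0.988). Among all tested genes, 3.19% were lower in Satb1-/- Hb9 at an unadjusted limma p under 0.05 in that fit. An exon of the noncoding gene 1700125G02Rik overlaps Epha10 on the opposite strand, and the use of strand in counting is not given in the sources used here. That gene was listed at 0 in all 5 Satb1-/- Hb9 libraries and at 0 to 2.61 TPM in WT Hb9.

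The make-up of the family followed Epha10. Its share of the summed EphA TPM was 9.53%, 4.68%, 9.92%, 70.8% and 44.9% in Satb1-/- Hb9 1 to 5, against 39.2%, 17.8%, 65.9%, 70.8% and 77.4% in WT Hb9 1 to 5. It was the highest member in 2 of 5 Satb1-/- Hb9 libraries and in 4 of 5 WT Hb9 libraries. In the remaining libraries the place went to Epha5 (Satb1-/- Hb9 2 and 3 and WT Hb9 2) or Epha6 (Satb1-/- Hb9 1). The summed EphA level was 498, 119, 104, 234 and 221 TPM in Satb1-/- Hb9 1 to 5, against 397, 208, 425, 366 and 227 TPM in WT Hb9 1 to 5. The sums overlapped between genotypes, at 235 ± 158 TPM in Satb1-/- Hb9 and 325 ± 100 TPM in WT Hb9 (SD, n = 5 each).

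**Figure D2:**
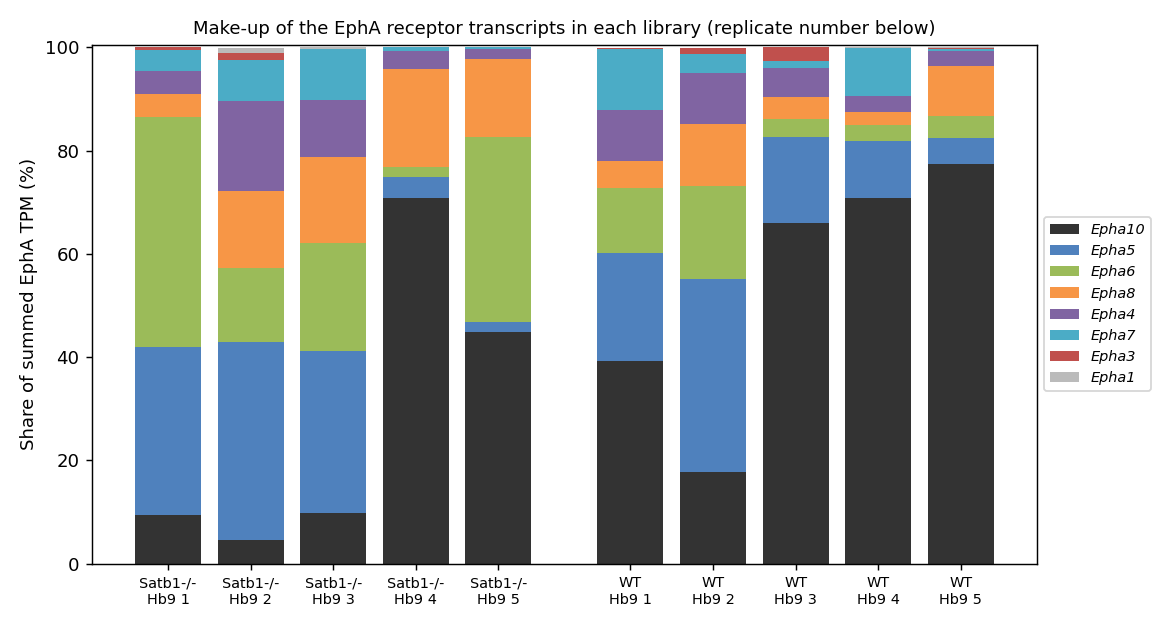
Share of the summed EphA TPM (%) held by each member in each library, Satb1-/- Hb9 at the left and WT Hb9 at the right, as stacked bars from 0. Epha10 held 4.68% to 9.92% in Satb1-/- Hb9 1 to 3, 44.9% to 70.8% in Satb1-/- Hb9 4 and 5, and 17.8% to 77.4% in WT Hb9.

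Epha5, the graded receptor that reads ephrin-A levels in the target, came next in order by median. It was at 161, 45.4, 32.5, 9.33 and 4.36 TPM in Satb1-/- Hb9 1 to 5, against 83.5, 77.5, 71.1, 40.6 and 11.5 TPM in WT Hb9 1 to 5. The Satb1-/- Hb9 libraries spanned a range that took in all 5 WT Hb9 values, and the lowest library of each genotype was among the 3 with high ribosomal protein shares. The log2 difference was -0.83 (SE 0.85, 95% interval -2.61 to 0.94; exact permutation p = 0.405; limma adjusted p = 0.992). Without those 3 libraries it was -0.08.

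Epha6, graded in the same direction across the retina, had the largest SD in Satb1-/- Hb9, at 90.1 TPM around a mean of 68.8 TPM (n = 5). It was at 222, 16.9, 21.7, 4.76 and 78.9 TPM in Satb1-/- Hb9 1 to 5, against 50.2, 37.4, 14.6, 10.8 and 9.71 TPM in WT Hb9 1 to 5. Satb1-/- Hb9 1 and 5 were above every WT Hb9 library, and Satb1-/- Hb9 4 was below every one. The log2 difference was 0.69 (SE 0.88, 95% interval -1.14 to 2.51; exact permutation p = 0.532; limma adjusted p = 0.992), and it was 0.00171 without Satb1-/- Hb9 1. Its exons overlap those of Gm9017 on the opposite strand, a gene for which no value was used here.

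Epha4, which binds ephrin-A and also ephrin-B ligands, ran in step with Epha5. It was at 22.5, 20.8, 11.5, 8.28 and 4.16 TPM in Satb1-/- Hb9 1 to 5, against 39.1, 20.7, 23.7, 11.5 and 6.31 TPM in WT Hb9 1 to 5. Satb1-/- Hb9 5 was below every WT Hb9 library and the other 4 were within their range. The log2 difference was -0.54 (SE 0.74, 95% interval -2.08 to 1.01; exact permutation p = 0.397; limma adjusted p = 0.992).

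Epha7, known as both a full-length and a truncated receptor without the kinase domain, was at 19.7, 9.42, 10.3, 1.44 and 0.915 TPM in Satb1-/- Hb9 1 to 5, against 47.4, 7.70, 6.33, 34.0 and 1.09 TPM in WT Hb9 1 to 5. WT Hb9 1 and 4 were above all Satb1-/- Hb9 libraries, while the medians stood the other way, at 9.42 TPM in Satb1-/- Hb9 and 7.70 TPM in WT Hb9. The log2 difference was -0.86 (SE 0.95, 95% interval -2.84 to 1.11; exact permutation p = 0.413; limma adjusted p = 0.992). One value per gene cannot tell the isoforms apart.

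Epha8 was the steadiest of the 6. It was at 22.4, 17.6, 17.3, 44.5 and 33.5 TPM in Satb1-/- Hb9 1 to 5, against 20.5, 25.0, 18.2, 9.33 and 22.0 TPM in WT Hb9 1 to 5. Satb1-/- Hb9 4 and 5 were above every WT Hb9 library. The log2 difference was 0.46 (SE 0.64, 95% interval -0.88 to 1.80; exact permutation p = 0.246; limma adjusted p = 0.992), and it was 0.13 when those 2 and WT Hb9 5 were left out.

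The other 3 members were at or near the lower end of the table. Epha2, known best from epithelia, was listed at 0 in all 10 libraries. Epha1 was at 0 to 1.13 TPM in Satb1-/- Hb9 and at 0 to 0.478 TPM in WT Hb9. Its exons overlap those of Zyx on the opposite strand, a gene at 16.1 to 199 TPM in Satb1-/- Hb9 and 11.8 to 112 TPM in WT Hb9. Epha3, the receptor that acts in the chick retina's gradient, was at 3.25, 1.67, 0, 0.0694 and 0.0102 TPM in Satb1-/- Hb9 1 to 5, against 0.881, 2.12, 11.2, 0.152 and 0.146 TPM in WT Hb9 1 to 5. WT Hb9 3 was the only library above 5 TPM for any of the 3.

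By median, the order in Satb1-/- Hb9 was Epha10 (47.5 TPM), Epha5 (32.5), Epha8 (22.4), Epha6 (21.7), Epha4 (11.5) and Epha7 (9.42). In WT Hb9 it was Epha10 (176 TPM), Epha5 (71.1), Epha4 (20.7), Epha8 (20.5), Epha6 (14.6) and Epha7 (7.70). Most neighbours in the order were not separated within libraries. Epha10 was above Epha5 in 2 of 5 Satb1-/- Hb9 libraries and in 4 of 5 WT Hb9 libraries, and Epha8 was above Epha6 in 2 of 5 in each genotype. Epha4 was above Epha7 in all 5 Satb1-/- Hb9 libraries, and Epha5 was above Epha4 in all 5 WT Hb9 libraries.

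Across the family, 0 of the 6 tested receptors passed the adjusted threshold, where the share called among all tested genes was 0.0% (0 of 11744). At an unadjusted limma p under 0.05, Epha10 was the only member, among 302 genes lower in Satb1-/- Hb9 (2.57% of those tested) and 389 in either direction (3.31%). Of the 6, 4 had a negative difference and 2 a positive one, with a median of -0.68, and among all tested genes 67.4% were negative with a median of -0.31. The groups of no member were free of overlap, which held for 0.502% of all tested genes. After median centring of the libraries, which put the median of all genes at 0.07, the signs of the 6 differences were unchanged and Epha10 was at -1.69 with an unadjusted limma p of 0.115, no longer under 0.05. The scaling moved the balance over all genes: at an unadjusted limma p under 0.05, 87 were higher and 302 lower in Satb1-/- Hb9 as deposited, 234 higher and 149 lower after median centring, and 189 higher and 212 lower after quantile normalization.

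**Figure D3:**
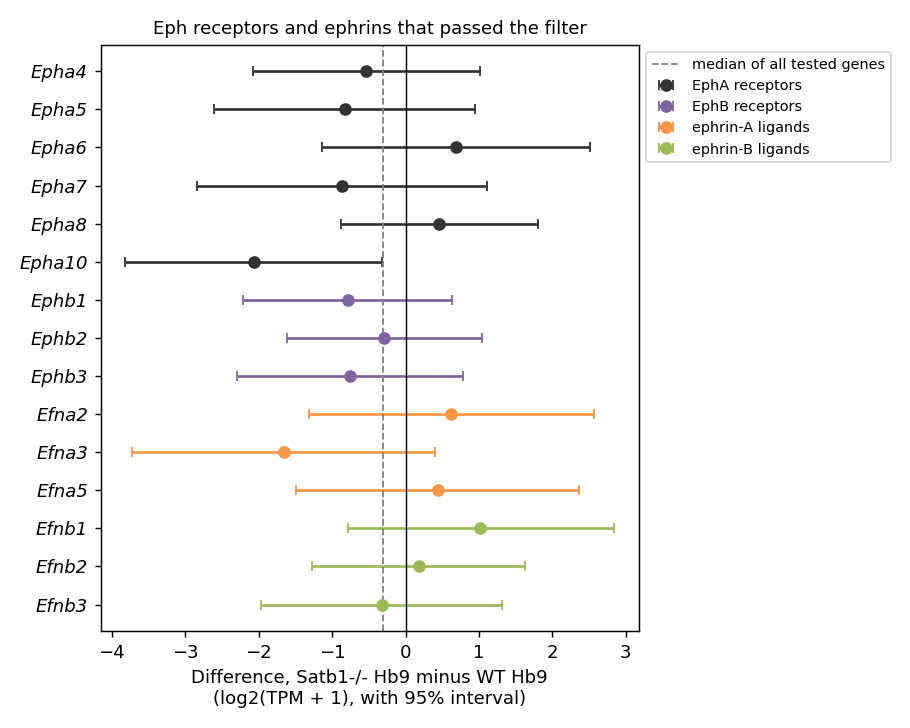
Difference in log2(TPM + 1), Satb1-/- Hb9 minus WT Hb9, with its 95% interval from limma, for the Eph receptors and ephrins that passed the filter; the dashed line is the median of all tested genes at -0.31. The interval of Epha10, from -3.82 to -0.32, lies wholly below 0, and the other intervals drawn include 0.

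Epha4, Epha5 and Epha7 were low in the same libraries of both genotypes. In the 3 libraries with high ribosomal protein shares, Epha4 was at 4.16 to 8.28 TPM, against 11.5 to 39.1 TPM in the other 7. Epha5 was at 4.36 to 11.5 TPM in the 3, against 32.5 to 161 TPM in the other 7, and Epha7 at 0.915 to 1.44 TPM in the 3, against 6.33 to 47.4 TPM in the other 7. Described over the 10 libraries on the log2 scale, Pearson's r was 0.91 between Epha4 and Epha5 (Spearman's rho 0.90), 0.80 between Epha5 and Epha7 (rho 0.70) and 0.77 between Epha4 and Epha7 (rho 0.68). These points share library and amplification, and over the 7 remaining libraries r was 0.66, 0.15 and 0.20 for the same pairs. Epha5 and Epha6 stood the other way, with r = 0.40 over the 10 libraries (rho 0.48) and 0.85 over the 7. For Epha8 and Epha5 r was -0.48 over the 10 (rho -0.21) and 0.62 over the 7. Epha10 did not run with Epha5, at r = -0.19 over the 10 (rho -0.15) and 0.28 over the 7. The part of library make-up in these patterns was not tested.

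**Figure D4:**
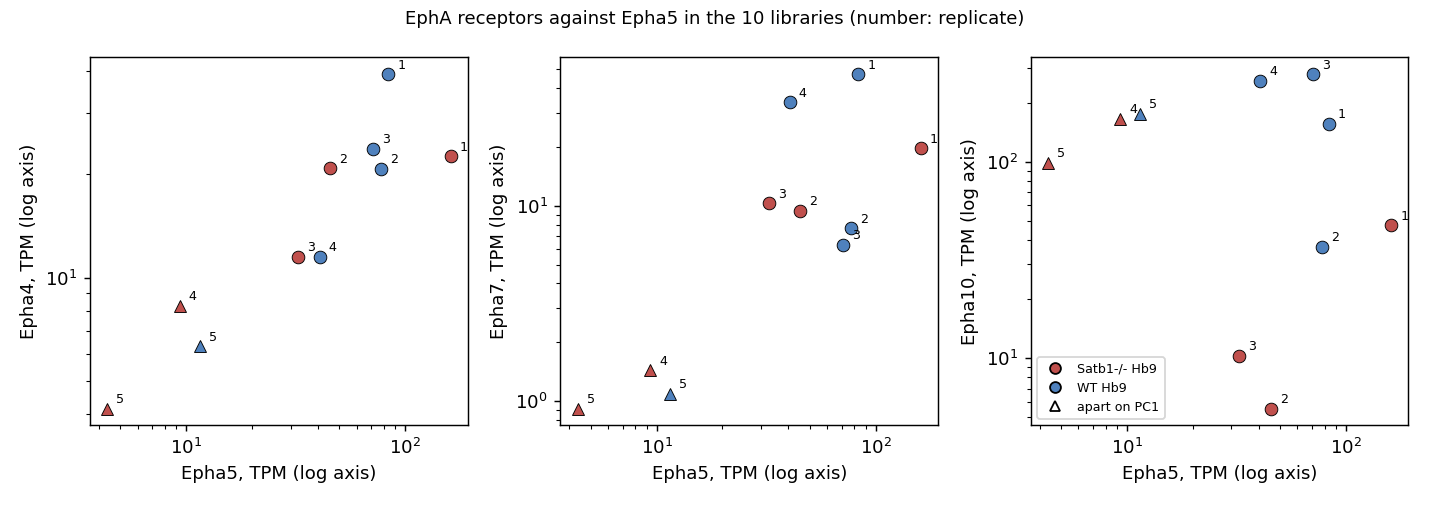
Levels in TPM (log axes) of Epha4, Epha7 and Epha10 against Epha5 in the 10 libraries, Satb1-/- Hb9 in red and WT Hb9 in blue, with replicate numbers; triangles mark the 3 libraries with high ribosomal protein shares. Those 3 lie low for Epha4, Epha5 and Epha7, while their Epha10 levels are 99.1 to 176 TPM.

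The promoters of Epha4 and Epha5, whose levels ran together, and that of Epha10, whose level did not, are shown for their sequence. Each is the 250 bases before the RefSeq start on GRCm38, 5′ to 3′ in the direction of the gene, with the dinucleotide CG, which reads the same on both strands, in capitals.
Epha10: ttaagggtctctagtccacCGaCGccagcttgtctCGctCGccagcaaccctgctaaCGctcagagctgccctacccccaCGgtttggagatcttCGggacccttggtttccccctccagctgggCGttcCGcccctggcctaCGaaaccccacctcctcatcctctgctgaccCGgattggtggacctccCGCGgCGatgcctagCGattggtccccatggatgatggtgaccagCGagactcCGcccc
Epha5: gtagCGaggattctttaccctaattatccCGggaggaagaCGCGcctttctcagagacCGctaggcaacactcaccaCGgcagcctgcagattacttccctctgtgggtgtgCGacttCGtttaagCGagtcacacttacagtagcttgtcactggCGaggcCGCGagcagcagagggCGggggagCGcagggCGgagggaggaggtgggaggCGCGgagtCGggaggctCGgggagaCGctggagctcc
Epha4: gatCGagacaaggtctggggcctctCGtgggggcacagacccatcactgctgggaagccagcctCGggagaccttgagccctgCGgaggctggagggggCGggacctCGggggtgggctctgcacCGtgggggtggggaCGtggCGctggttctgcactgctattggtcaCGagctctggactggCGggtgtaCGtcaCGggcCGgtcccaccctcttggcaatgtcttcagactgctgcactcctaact
They lie at chr4:124881535-124881784 on the plus strand (Epha10), chr5:84417383-84417632 on the minus strand (Epha5) and chr1:77515089-77515338 on the minus strand (Epha4). The Epha10 window is downstream of the gene start given above, chr4:124880899, while the other windows shown border the 5′ end of their gene. The windows hold 17, 20 and 14 CG dinucleotides in this order, and of 32851 such promoter windows 23.5%, 17.9% and 29.4% hold as many or more. The median window holds 6. The Epha8 window was the richest of the family, with 46, a number reached by 0.323% of windows.

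The genes whose levels were most like those of Epha10 over the 10 libraries, among 8328 tested genes averaging at least 10 TPM, were Rab11fip5 (Pearson's r 0.91, Spearman's rho 0.92), Fam123c (r 0.89, rho 0.93) and Lsm2 (r 0.88, rho 0.92). Over the 7 libraries with lower ribosomal protein shares r was 0.90, 0.96 and 0.96 in the same order. Rab11fip5 encodes an effector of a vesicle trafficking GTPase, and Lsm2 a small protein of RNA processing complexes. Lsm2 was at 0.522 to 19.5 TPM in Satb1-/- Hb9 and at 18.5 to 64.8 TPM in WT Hb9, with a log2 difference of -2.56 (SE 0.82; limma adjusted p = 0.992). Rab11fip5 was at 12.4 to 47.6 TPM in Satb1-/- Hb9 and at 17.9 to 71.8 TPM in WT Hb9 (-0.65, SE 0.66). The 3 were picked for this likeness, which is given as a description.

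Transcripts of the ligands and sister receptors were found in the same sorted bulk samples, where the cells they came from are not known. Among the EphB receptors, which bind ephrin-B ligands and guide ganglion cell axons along the dorsal to ventral axis, Ephb1, Ephb2 and Ephb3 were tested, and all 3 had negative differences with none called. Ephb1, which steers the ipsilateral axons at the optic chiasm, was at 19.7, 9.23, 5.16, 8.19 and 9.69 TPM in Satb1-/- Hb9 1 to 5, against 23.4, 12.2, 27.0, 12.6 and 15.4 TPM in WT Hb9 1 to 5. Only Satb1-/- Hb9 1 lay within the WT Hb9 range (-0.79, SE 0.68; limma adjusted p = 0.992). Ephb2 averaged 30.0 ± 12.1 TPM in Satb1-/- Hb9 and 36.3 ± 14.4 TPM in WT Hb9, and Ephb3 averaged 19.7 ± 16.1 TPM in Satb1-/- Hb9 and 31.8 ± 20.8 TPM in WT Hb9 (SD, n = 5 each). Ephb4 and the pseudokinase gene Ephb6 stayed at or below 4.26 TPM in every library. The summed EphB level was 47.2 to 75.5 TPM in Satb1-/- Hb9 and 76.3 to 103 TPM in WT Hb9, and the nearest libraries of the 2 genotypes, Satb1-/- Hb9 1 and WT Hb9 4, were at 75.5 and 76.3 TPM. Each of the 3 tested EphB genes overlapped between genotypes with a 95% interval that includes 0, and a negative difference was found for 67.4% of all tested genes.

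Of the 5 ephrin-A ligands, 3 were tested and none was called. Efna3 was at 37.8, 9.13, 19.0, 23.3 and 0 TPM in Satb1-/- Hb9 1 to 5, against 30.5, 56.1, 217, 15.9 and 8.18 TPM in WT Hb9 1 to 5 (-1.66, SE 0.99; limma adjusted p = 0.992). The high WT Hb9 level rested on WT Hb9 3. Efna5, the ligand graded in the colliculus and nasal retina, had a median of 21.7 TPM in Satb1-/- Hb9 and 17.8 TPM in WT Hb9, with 171 TPM in Satb1-/- Hb9 2 (0.44, SE 0.92). Efna2 had a median of 23.3 TPM in Satb1-/- Hb9 and 6.21 TPM in WT Hb9 (0.62, SE 0.93). Efna1 and Efna4 were listed at 0 in at least 1 library and reached at most 3.45 TPM and 10.5 TPM. All 3 ephrin-B ligands were tested and none was called. Efnb2 averaged 32.9 ± 17.3 TPM in Satb1-/- Hb9 and 29.0 ± 16.1 TPM in WT Hb9, and Efnb3 averaged 29.1 ± 16.4 TPM in Satb1-/- Hb9 and 51.5 ± 52.5 TPM in WT Hb9 (SD, n = 5 each). Efnb1 was at 0.186 to 26.8 TPM in Satb1-/- Hb9 and at 0 to 7.03 TPM in WT Hb9.

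Ephrin-A ligands lack a cytoplasmic part and signal back through partners such as the neurotrophin receptors and Ret. Of 5 such partners 4 were tested and none was called. Against 67.4% negative among all tested genes, 1 had a positive and 3 a negative difference. Ngfr, which encodes the p75 neurotrophin receptor, had the smallest p of them. It was at 0.648, 0.146, 1.1, 0.78 and 0.818 TPM in Satb1-/- Hb9 1 to 5, against 17.6, 7.44, 1.0, 69.5 and 2.0 TPM in WT Hb9 1 to 5. Of the WT Hb9 libraries 4 were above all Satb1-/- Hb9 libraries, and WT Hb9 3 was within their range (-2.47, SE 0.85; limma adjusted p = 0.992). The 10 endothelial cell and pericyte markers summed to 0.577, 7.10, 1.15, 0.932 and 2.35 TPM in Satb1-/- Hb9 1 to 5, against 60.4, 50.6, 8.59, 30.5 and 5.49 TPM in WT Hb9 1 to 5. Of those markers 0 of 10 had a median of at least 1 TPM in Satb1-/- Hb9 and 1 of 10 in WT Hb9. Cldn5, Tie1 and Pdgfrb were at 0 in all Satb1-/- Hb9 libraries. They were low in WT Hb9 too, with medians of 0, 0 and 0.282 TPM and maxima of 4.22, 0.115 and 4.64 TPM. Rgs5, a pericyte gene and the most abundant of the 10, was at 0.0326 to 1.59 TPM in Satb1-/- Hb9 and at 0 to 42.9 TPM in WT Hb9. The part of these markers in the Ngfr values was not tested. Ret, the most abundant partner on average, was at 22.3 to 161 TPM in Satb1-/- Hb9 and at 13.6 to 81.4 TPM in WT Hb9 (0.61, SE 0.68).

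Of 31 genes for signalling and turnover downstream of Eph receptors, 28 were tested and none was called, as was none of all 11744 tested genes. Their differences were positive in 6 and negative in 22, with a median of -0.44. Among all tested genes 67.4% were negative with a median of -0.31. The GTPase gene Rhoa, through which EphA receptors collapse growth cones, had the highest mean of the list. It was at 22.8 to 474 TPM in Satb1-/- Hb9 and 15.0 to 224 TPM in WT Hb9 (-0.34, SE 0.82). The adaptor gene Nck2 had the smallest p, at 1.66, 17.7, 5.77, 9.16 and 1.24 TPM in Satb1-/- Hb9 1 to 5, against 15.0, 16.8, 36.8, 38.6 and 13.5 TPM in WT Hb9 1 to 5. Satb1-/- Hb9 2 was within the WT Hb9 range and the other 4 were below it (-1.93, SE 0.78; limma adjusted p = 0.992). Arhgef16 and Arhgef19, which did not pass the filter, were at 0 in all Satb1-/- Hb9 libraries. In WT Hb9 they were at 0 to 5.7 TPM and at 0 to 4.75 TPM.

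Markers of other retinal cell types varied by library. The 14 rod photoreceptor markers summed to 313, 65.7, 557, 494 and 35.4 TPM in Satb1-/- Hb9 1 to 5, against 16.4, 25.1, 16.7, 501 and 624 TPM in WT Hb9 1 to 5. Pde6g, a rod phosphodiesterase subunit gene and the most abundant of them, was at 0 to 217 TPM in Satb1-/- Hb9 and at 0 to 192 TPM in WT Hb9. The 10 microglia markers summed to 74.2 to 2744 TPM in Satb1-/- Hb9 and to 4.14 to 2254 TPM in WT Hb9, with Tyrobp the most abundant, at 21.9 to 1065 TPM in Satb1-/- Hb9 and 0 to 428 TPM in WT Hb9. The 12 markers of Muller glia and progenitors summed to 176 to 7865 TPM in Satb1-/- Hb9, with the highest in Satb1-/- Hb9 5, and to 326 to 620 TPM in WT Hb9. Apoe, the most abundant of them, was at 10.9 to 5651 TPM in Satb1-/- Hb9 and 19.5 to 228 TPM in WT Hb9. Their part in the EphA receptor values was not tested.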

How the data were processed

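The libraries were single-end RNA-seq of sorted cells, from RNA purified with the PicoPure kit and cDNA amplified with the Ovation kit, per the labels' protocols. The deposited table holds log10(TPM + 1) values made by the authors: back-transformed on base 10, every library summed to 1000000 TPM. The submitters' processing notes name TopHat2 2.0.10, Cufflinks and the build mm10. How reads were counted, with which annotation and filters, and whether strand was used, is not given in the sources used here.

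Entries with a number as symbol (26, holding 0.0438% to 0.198% of TPM) were left out, and 240 symbols on several lines were summed. Values were put on log2(TPM + 1), a scale that understates differences of low genes. Genotype was fitted as the sole factor with limma 3.58.1 (R 4.3.3) and a mean-variance trend, checked on simulated data, with Benjamini-Hochberg adjustment at 0.05. Exact permutation tests were two-sided. A 0 may be a failed estimate: 8 of the 1100 genes whose median reached 100 TPM had one in some library.

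The members, lists and libraries left out were chosen with earlier results of these data known. All members were named, and of each other list described the gene with the highest mean and that with the smallest p (for cell type markers the highest mean only), with the Eph receptors and ephrins in full; genes at 0 throughout a genotype were named besides. Alternatives covered pseudocount, filter, scaling, replicate block, library weights, variance model and single libraries left out.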

Additional observations from a re-analysis of the deposited data

How the results depend on the processing

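No EphA receptor passed an adjusted p of 0.05 in any of the 21 alternative fits, and the sign of each difference held in all of them, with 1 exception: Epha6 was -0.00431 with library weights. Over those fits Epha4 ranged from -0.86 to -0.15, Epha5 from -1.48 to -0.08, Epha7 from -1.49 to -0.30 and Epha8 from 0.13 to 0.83. Epha10 ranged from -3.24 to -1.45, and was -2.62 to -1.45 with each library left out, where its unadjusted limma p was 0.00502 to 0.0857. It was above 0.05 without Satb1-/- Hb9 2 or 3 or WT Hb9 3 or 4, with median centring (0.115) and with no filter on low values (0.0508). The count of genes past the threshold was 0 as reported, 1 with a mean of at least 5 TPM, 3 with library weights, 1 with no trend, and 0 to 1 with each library left out (1 without WT Hb9 3, 4 or 5), and none of them was an EphA receptor. At an unadjusted p under 0.05 the count was 389 as reported, 834 with library weights and 286 to 845 with each library left out, the highest without WT Hb9 5. The fits without and with a term for the 3 libraries apart on the first component were added after the data were seen and called 0 genes. The replicate numbers are shared by both genotypes, but same-numbered libraries correlated above 0.1 in their deviations in 3 of 5 pairs only (-0.032 to 0.364), so they were not taken as pairs. With the number as a replicate block 0 genes and 0 EphA receptors were called, and Epha10 had an unadjusted limma p of 0.00668 and an adjusted p of 0.692 at the same difference of -2.07; 830 genes had an unadjusted p under 0.05. Satb1-/- Hb9 1, 3 and 5 correlated best with the WT Hb9 library of their own number, a hint from the data and not from the design. Depth is unknown, so counting error could not be given for any value.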

Other observations

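Transcripts of transcription factors that set position across the retina, the axis along which EphA levels are graded, were found in the sorted samples. Of 11 listed, 9 were tested, 5 with a positive and 4 with a negative difference and a median of 0.04, and none was called by limma. Among all tested genes 67.4% were negative with a median of -0.31. Isl2, a factor of contralaterally projecting ganglion cells, was at 30.1, 30.3, 16.9, 115 and 95.2 TPM in Satb1-/- Hb9 1 to 5, against 45.4, 53.4, 90.9, 118 and 116 TPM in WT Hb9 1 to 5 (-0.81, SE 0.65). Satb1-/- Hb9 1 to 3 were below every WT Hb9 library. Satb1-/- Hb9 4 and 5, both with high ribosomal protein shares, were within the WT Hb9 range. Epha10 too was lower in Satb1-/- Hb9 1 to 3 than in Satb1-/- Hb9 4 and 5. In WT Hb9, Isl2 was lowest in WT Hb9 1, while Epha10 was at 156 TPM there and lowest in WT Hb9 2, at 37.0 TPM. A tie between Isl2 and Epha10 was not tested. Hmx1 had the highest mean of the list and the widest spread, at 0.598 to 130 TPM in Satb1-/- Hb9 and at 0 to 596 TPM in WT Hb9.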
